A study of Mus musculus with 2 samples.

Results

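Mir204, Mir211, Mir1298, Mir1264 and Mir448 are 5 miRNA genes that lie in introns of 3 genes linked to the choroid plexus or to pigment cells, and they were taken from the 1973 miRNA genes of the tables by their symbols. They were selected on their host genes with the levels and the ratios between libraries of these same data known. Mir204 lies in Trpm3, its paralog Mir211 lies in Trpm1, and Mir1298, Mir1264 and Mir448 lie in Htr2c. MicroRNA sequencing, which counts short RNA reads, was carried out on neural tube, the embryonic tissue that forms the brain and spinal cord. The tissue came from healthy B6NCrl mouse embryos at 15.5 days, in 1 group of 2 pools with males and females mixed. Library 1 was made from 78 embryos and library 2 from 62. Neither pool carried a treatment or a genetic change according to the labels. With 1 group there is no comparison of conditions, so the levels and library ratios of these genes are given as descriptions with counting intervals and without a test.

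The choroid plexus is the epithelium that makes the brain's fluid, and 2 of the 3 hosts, Htr2c and Trpm3, are known from it. Htr2c encodes a serotonin receptor and is expressed at high levels in choroid plexus epithelium as well as in neurons. Trpm3 encodes a cation channel found in choroid plexus and in the pigment epithelium of the retina. Trpm1 encodes a related channel known from melanocytes and retinal bipolar cells. A miRNA inside an intron is cut out of the host's primary transcript as a hairpin, from which the 5p or the 3p arm is kept and guides silencing of messenger RNAs that pair with its seed, bases 2 to 8. The deposited counts are per miRNA gene and do not separate the arms.

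The mature sequences show which of these miRNAs could share targets and which could share reads. RefSeq, on build GRCm38.p6, holds at least 1 mature sequence for each of the 5 genes and 9 in all. They are given 5′ to 3′ with the seed in capitals.
miR-204-5p: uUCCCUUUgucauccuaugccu
miR-211-5p: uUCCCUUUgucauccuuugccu
miR-204-3p: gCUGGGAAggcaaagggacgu
miR-211-3p: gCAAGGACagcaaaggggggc
miR-1298-5p: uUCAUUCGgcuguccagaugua
miR-1298-3p: cAUCUGGGcaacugauugaacu
miR-448-5p: gAACAUCCugcauagugcugcc
miR-448-3p: uUGCAUAUguaggaugucccau
miR-1264-3p: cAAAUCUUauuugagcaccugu

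The 5p arms of Mir204 and Mir211 carry the same seed and are identical at 21 of 22 positions. Their single difference is A17U, with the base of miR-204-5p first and positions counted from the 5′ end. Their 3p arms are identical at 14 of 21 positions and carry different seeds. Among the 1738 mature sequences of the table, miR-7670-3p is the only other one with the seed of miR-204-5p, and Mir7670 had 0 counts in library 1 and 0 in library 2. The seeds of the 3 Htr2c genes differed from each other, and 0 other mature sequences in the table carried any of them. The paralog hairpins are given next, with the mature arms in capitals, because they show how far the likeness extends beyond the seed.
Mir204: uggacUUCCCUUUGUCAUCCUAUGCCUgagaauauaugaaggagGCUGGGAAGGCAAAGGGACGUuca
Mir211: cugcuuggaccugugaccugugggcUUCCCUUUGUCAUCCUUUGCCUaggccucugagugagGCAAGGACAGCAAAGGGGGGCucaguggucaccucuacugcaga

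The Mir204 and Mir211 hairpins span 68 and 106 bases and share a longest identical stretch of 17 bases. None of the 5 precursors shares 20 bases with any other of the 2202 miRNA precursors annotated in GENCODE M21. Reads of full length from Mir204 and Mir211 thus differ at 1 base of the 5p arm. How many mismatches the authors' alignment allowed is not given in the sources used here, and whether reads of one paralog were counted in the other was not tested.

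Mir204 was the most abundant of the 5 genes. It lies on chromosome 19 at chr19:22750605-22750672 of GRCm38, the assembly also called mm10, on the plus strand, in intron 6 of 25 of the principal Trpm3 transcript and 612 kb from the annotated start of the host. It overlaps an exon of 0 of the 24 annotated Trpm3 transcripts. The identifier in the tables, ENSMUSG00000065507.2, is an earlier version of the M21 entry. Mir204 had 1480 counts in library 1 and 2662 counts in library 2, which is 350.0 CPM (95% exact Poisson interval 332 to 368) and 441 CPM (424 to 458), where CPM is counts per 1000000 sense-strand counts in miRNA genes. Its mean of 395 ± 64.2 CPM (SD, n = 2) placed it at rank 119 of the 1973 genes. Reads that aligned to several places were counted in no gene, so genes with copies of the same sequence can rank too low. Reads from mature miRNAs span the whole molecule, here 21 or 22 bases, so levels of different genes were compared without division by length. Ratios, shares and ranks between genes are therefore those of read counts. Whether each sequence yields reads equally well was not tested.

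Mir211 was close to the limit of detection. It lies on chromosome 7 at chr7:64205806-64205911 (ENSMUSG00000065585.1), in intron 6 of 26 of the principal Trpm1 transcript. It had 8 counts in library 1 and 15 counts in library 2, or 1.89 CPM (0.817 to 3.73) and 2.48 CPM (1.39 to 4.10). The limit that a count of 0 allows, 3 counts, corresponds to 0.709 CPM for library 1 and to 0.497 CPM for library 2, and Mir211 lay above it in both. It did not reach 10 counts in library 1, the minimum used here for calling a gene detected, and its rank was 374. Mir204 exceeded its paralog 185-fold in library 1 (95% exact interval 93.6 to 429) and 177-fold in library 2 (107 to 318). The pair thus gave 1488 counts in library 1, of which 1480 were assigned to Mir204, and 2677 in library 2, of which 2662 were. Intervals and limits cover counting error of reads only and leave out the spread between pools. They can be too narrow, because PCR copies are not independent molecules.

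**Figure D1:**
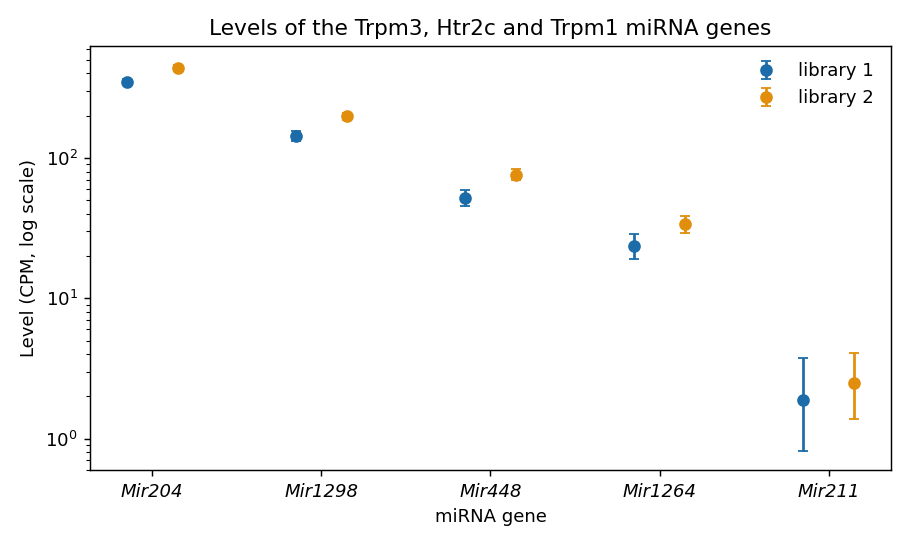
Level of each miRNA gene in CPM on a log axis, with library 1 left of library 2 and bars for the 95% exact Poisson interval. Mir204 is highest with 350.0 and 441 CPM, Mir211 lowest with 1.89 and 2.48 CPM, and the order of the 5 genes is the same in both libraries.

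The 3 Htr2c genes were all detected, and Mir1298 exceeded Mir1264 6.06-fold in library 1 (95% exact interval 4.90 to 7.56) and 5.88-fold in library 2 (5.06 to 6.85). They lie on chromosome X, on the plus strand like Htr2c, and overlap an exon of 0 of its 7 annotated transcripts. Mir1298 (ENSMUSG00000080331.1, chrX:147064905-147065002) had 606 counts in library 1 and 1199 counts in library 2, or 143 CPM (132 to 155) and 199 CPM (187 to 210.1). Mir448 (ENSMUSG00000065450.1, chrX:147158210-147158321) had 219 and 460 counts in libraries 1 and 2, or 51.8 CPM (45.2 to 59.1) and 76.2 CPM (69.4 to 83.4). Mir1264 (ENSMUSG00000093122.1, chrX:147010601-147010686) had 100 and 204 counts in libraries 1 and 2, or 23.6 CPM (19.2 to 28.8) and 33.8 CPM (29.3 to 38.7). The libraries' intervals of neighbouring genes in this order did not overlap, and Mir1298 lay above Mir448, and Mir448 above Mir1264, in both libraries. Their means were 171 ± 39.0 CPM, 64.0 ± 17.2 CPM and 28.7 ± 7.16 CPM (SD, n = 2 each), at ranks 168, 224 and 267.

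Within the host, the proportions of the 3 genes were nearly the same in both pools. Mir1298 made up 65.5% of their 925 counts in library 1 (62.4 to 68.5, a 95% Wilson interval), and 64.4% of the 1863 of library 2 (62.2 to 66.5). Mir448 made up 23.7% in library 1 (21.0 to 26.5) and 24.7% in library 2 (22.8 to 26.7). Mir1264 made up 10.8% in library 1 (8.97 to 13.0) and 11.0% in library 2 (9.61 to 12.4). Each gene's intervals overlap between the libraries. Mir1298 exceeded Mir448 2.77-fold in library 1 (exact interval 2.37 to 3.24) and 2.61-fold in library 2 (2.34 to 2.91). Mir448 exceeded Mir1264 2.19-fold in library 1 (1.72 to 2.80) and 2.25-fold in library 2 (1.91 to 2.67). Mir1298 also exceeded the sum of both others, 1.90-fold in library 1 (1.66 to 2.18) and 1.81-fold in library 2 (1.64 to 1.99), a mean log2 ratio of 0.89 ± 0.05 (SD, n = 2).

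Mir764 and Mir1912, the other miRNA genes annotated inside Htr2c, were barely counted. Mir764 had 3 counts in library 1 and 4 counts in library 2, and Mir1912 had 1 and 2 counts in libraries 1 and 2. They made up 0.323% (Wilson interval 0.110 to 0.945) and 0.108% (0.0190 to 0.607) of the counts in the 5 Htr2c genes in library 1. In library 2 the shares were 0.214% (0.0833 to 0.549) for Mir764 and 0.107% (0.0294 to 0.389) for Mir1912. Like the other genes of Htr2c, neither precursor shares 20 bases with another annotated miRNA precursor.

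Level did not change steadily with position along the host. The genes farthest from its start, Mir1298 and Mir448, had the highest levels, but Mir448 lies farther along than Mir1298 and had the lower level. Measured from the annotated start of Htr2c, a gene of 235 kb, Mir764 lies at 39.7 kb, Mir1912 at 46.9 kb, Mir1264 at 48.1 kb and Mir1298 at 102 kb, all 4 in intron 2 of the 5 introns of the principal transcript. Mir448 lies at 196 kb in intron 4. Mir1912 and Mir1264 lie little more than 1 kb apart in the same intron, and had 1 count against 100 in library 1 and 2 counts against 204 in library 2. Intron 2 thus holds the most abundant gene, Mir1298, together with both of the least abundant ones.

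**Figure D2:**
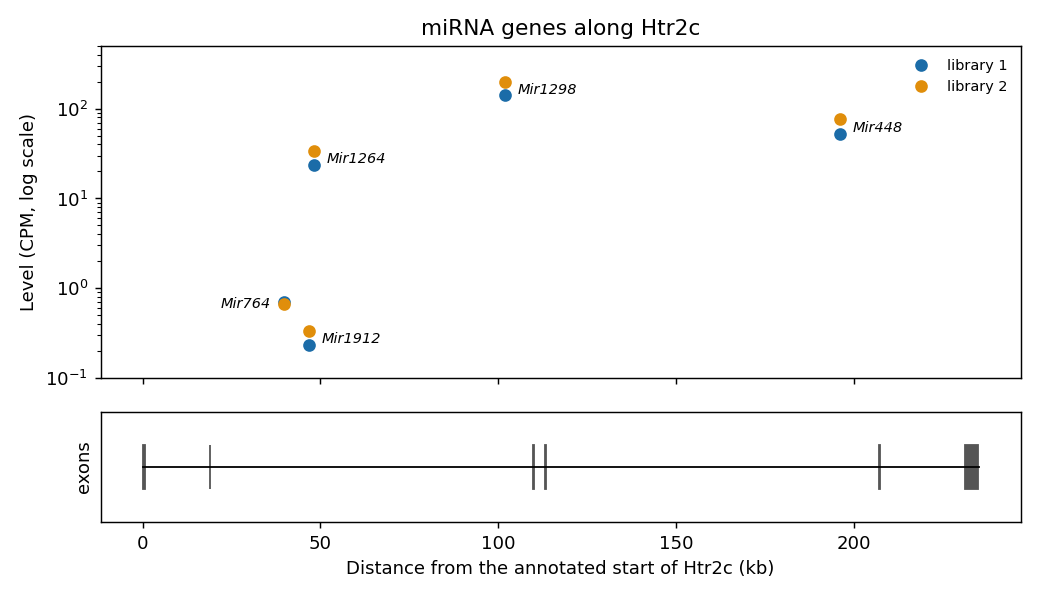
miRNA genes along Htr2c, with distance from its annotated start in kb against level in CPM on a log axis (points for library 1 and library 2), above the exons of the principal transcript. Mir1298 at 102 kb is highest with 143 and 199 CPM, while Mir764 and Mir1912 lie below 1 CPM in the same intron.

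Summed, the 5 genes took 0.0571% of the sense counts in library 1 and 0.0752% in library 2, or 571 and 752 CPM (mean 661 ± 128, SD, n = 2). Of these counts, Mir204 made up 61.3% in library 1 (59.4 to 63.3, Wilson) and 58.6% in library 2 (57.2 to 60.1). The Htr2c genes reached 0.622 of the Mir204 and Mir211 counts in library 1 (exact interval 0.572 to 0.675) and 0.696 in library 2 (0.656 to 0.739). In the order of all genes by mean level, the genes nearest to Mir204 were Mir676 and Mir383 above it and Mir186 and Mir15b below it, with means between 422 and 385 CPM. Mir672 and Mir667 stood above Mir1298, and Mir421 and Mir148a below it. Mir302d and Mir31 stood above Mir448, and Mir666 and Mir1224 below it. Mir670 and Mir3102 stood above Mir1264, and Mir3059 and Mir3072 below it. Each of these 16 neighbours overlapped its member in the range over both libraries, so these steps of the order do not exceed the spread between pools. Among the 120 X-linked miRNA genes, 38 of them detected, Mir1298 ranked 18, Mir448 ranked 28 and Mir1264 ranked 34.

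All 5 genes had lower levels in library 1 than in library 2. On the log2 scale of CPM, library 1 over library 2, Mir204 stood at -0.33 (95% exact counting interval -0.43 to -0.24), Mir1298 at -0.47 (-0.61 to -0.33), Mir448 at -0.56 (-0.80 to -0.32) and Mir1264 at -0.51 (-0.87 to -0.16). Mir211 stood at -0.39, but with 8 and 15 counts its interval of -1.84 to 0.94 includes no difference. The summed counts gave -0.40 (-0.47 to -0.33), and the Htr2c genes alone gave -0.50 (-0.61 to -0.38). The 4 detected members all had a ratio below the boundary of -0.32 on the log2 scale, which was chosen with earlier results of these data known. The intervals of Mir204 and Mir1264 reach across it, and that of Mir448 ends at it. Of the 363 detected genes, 31 lay below -0.32, which is 8.54%, and 83 lay above 0.32, which is 22.9%. With edgeR's TMM scaling those numbers were 47 and 68, and without the 3 most abundant genes in the library size they were 50 and 66. Lower levels in library 1 of any size were found for 161 of 363 genes, or 44.4%, with library sizes alone, and for 196 with TMM, 182 with DESeq2 size factors, 201 without the 3 most abundant genes and 150 without epithelial and mesenchymal marker genes in the library size. The genes were taken by symbol and host with these ratios known, so nothing is read from the members' count. Mir204 lies close to the boundary, and 3 of the 4 lay past it when epithelial and mesenchymal marker genes were left out of the library size, a setting chosen after seeing the data.

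The differences were small beside the largest in these libraries. The median log2 ratio over all 363 detected genes was 0.03, with quartiles of -0.12 and 0.28 and extremes of -1.21 and 5.72, while the median of the 4 detected members was -0.49. The median over all detected genes lies near 0 and its sign depends on the scaling, with -0.035 under TMM, -0.001 with DESeq2 size factors, -0.048 without the 3 most abundant genes and 0.059 without epithelial and mesenchymal marker genes in the library size. Each of these scalings shifts the log2 ratio of every gene by the same amount. The 5 members, chosen with these ratios known, stayed lower in library 1, and nothing is read from this. Ordered from the lowest ratio, Mir448 was at place 5, Mir1264 at place 7, Mir1298 at place 12 and Mir204 at place 27. None of the 4 reached 1.5-fold, which 3 detected genes did in this direction. In these bulk pools, fewer cells of a type and less RNA per cell cannot be told apart.

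**Figure D3:**
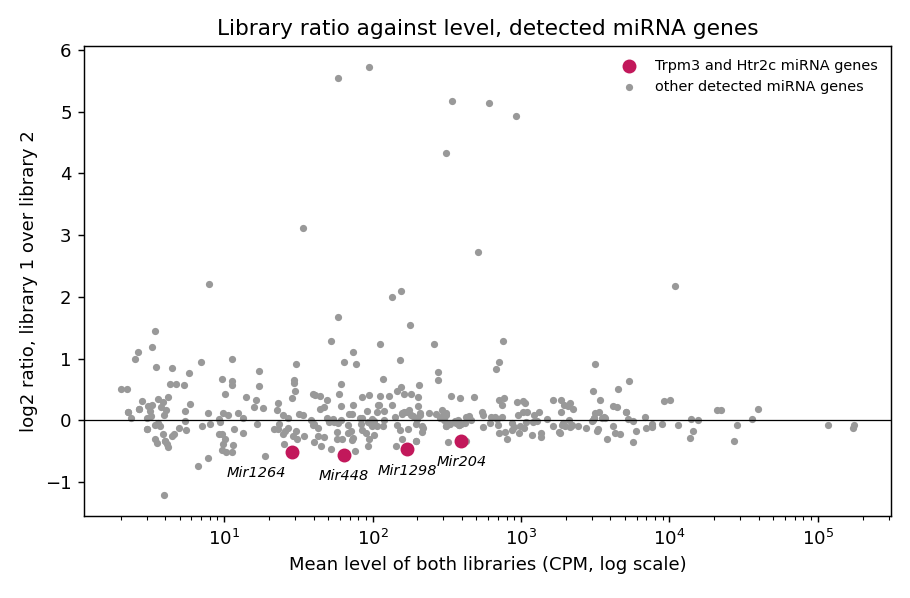
Log2 ratio of library 1 over library 2 against mean level in CPM (log axis) for the 363 detected miRNA genes, with Mir204, Mir1298, Mir448 and Mir1264 in colour. The 4 lie between -0.56 and -0.33, all below the line at 0, while the highest ratio of any gene is 5.72.

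The 3 Htr2c genes had nearly the same ratio between libraries, which restates their nearly equal proportions of counts in both pools. Their log2 ratios spanned 0.09, between -0.56 and -0.47, which lies within the counting interval of each. The same span was computed for the other 10 hosts with at least 3 detected miRNA genes. Among those it was smallest for Mir99ahg with 0.19, and largest for Sfmbt2, whose 9 genes ran between -0.40 and 0.85. The Mir17hg genes spanned 0.74 and the genes of Mirg, a transcript of the imprinted Dlk1-Dio3 region, 0.37 over 12 genes. The number of genes, their counts and shared sequence differ between hosts, and the difference in span was not tested. The Htr2c genes were chosen with these ratios known, so nothing is read from their place among the hosts.

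**Figure D4:**
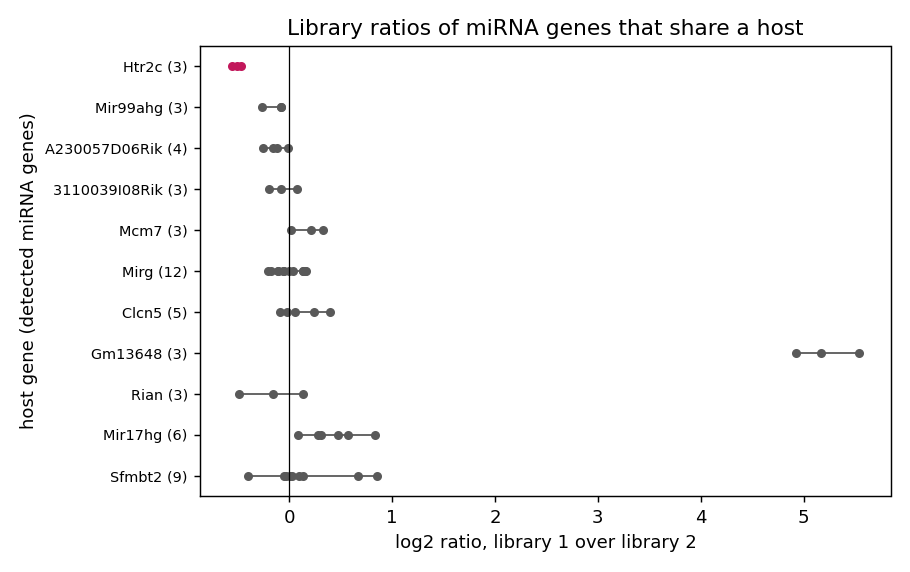
Log2 ratio of library 1 over library 2 of each detected miRNA gene, by host gene, for the 11 hosts with at least 3 detected genes (number in brackets), Htr2c at the top and the others by span. The Htr2c genes lie within 0.09 of each other, below 0, while the Gm13648 genes of the Mir200 family lie near 5.

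Over these 2 libraries only, the detected genes of at least 100 CPM with ratios nearest to that of Mir204 were Mir760, Mir487b and Mir676, each at -0.33, out of 194 compared. Nearest to Mir1298 at -0.47 were Mir217 at -0.42, Mir615 at -0.36 and Mir206 at -0.35. Mir676, with 375 and 470.0 CPM in libraries 1 and 2, also lies on chromosome X.

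Other miRNA markers of multiciliated cells, such as those of the choroid plexus, were not lower in library 1 as a sum. Of Mir449a, Mir449b, Mir449c, Mir34b and Mir34c, which are known from ciliated epithelium, 3 of 5 were detected and Mir449b and Mir449c were at 0 in both libraries. As a sum they reached 434 CPM in library 1, against 346 in library 2, a log2 ratio of 0.33 (0.24 to 0.42), which rests on Mir34c with 383 CPM and 293 CPM. Mir449a had 38.5 and 38.4 CPM, and Mir34b had 12.5 and 14.4 CPM in libraries 1 and 2. The label of a choroid plexus group rests on the host genes' known expression alone. These counts from whole tissue, and this ratio between pools, do not locate the members' reads in a cell type.

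The neuron, neural progenitor and oligodendrocyte lists lay between these values, and sums of the other lists were higher in library 1. The neuron list (12 of 15 detected) summed to 11992 CPM in library 1, against 12806 in library 2, a log2 ratio of -0.09 (-0.11 to -0.08). The neuron genes not detected were the copies of Mir124a. Reads that aligned to several places were counted in no gene, so absence of these copies cannot be read from the counts. Neural progenitor genes (2 of 3 analysed) gave -0.18 and oligodendrocyte genes (3 of 3) gave -0.15. The epithelium list (7 of 7) summed to 5458 CPM in library 1, against 631 in library 2, a log2 ratio of 3.11 (3.06 to 3.16). The mesenchyme and smooth muscle list (6 of 7) summed to 22420.4 and 7594 CPM in libraries 1 and 2, a log2 ratio of 1.56. Mir143 gave 75904 of the list's 94809 counts in library 1. Over its detected genes the median log2 ratio was 1.04, with 5 above the boundary of 0.32 and Mir140 at -0.02. Blood genes (6 of 7) gave 0.60 as a sum, with a median of 0.39 and 3 genes above the boundary. Mir451a, Mir150 and Mir486 lay at 0.05, 0.10 and 0.16. Retinal and sensory genes (3 of 3), a list that bears on Trpm1 and Trpm3 because retina expresses both, gave 0.13, and the endothelial gene Mir126a gave 0.16. The part of these tissues in the members' ratio was not tested. With epithelial and mesenchymal genes left out of the library size, the members' summed ratio was -0.37 against -0.40 with them. That change shifts the log2 ratio of every gene by the same amount, so it cannot show the part of these tissues.

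**Figure D5:**
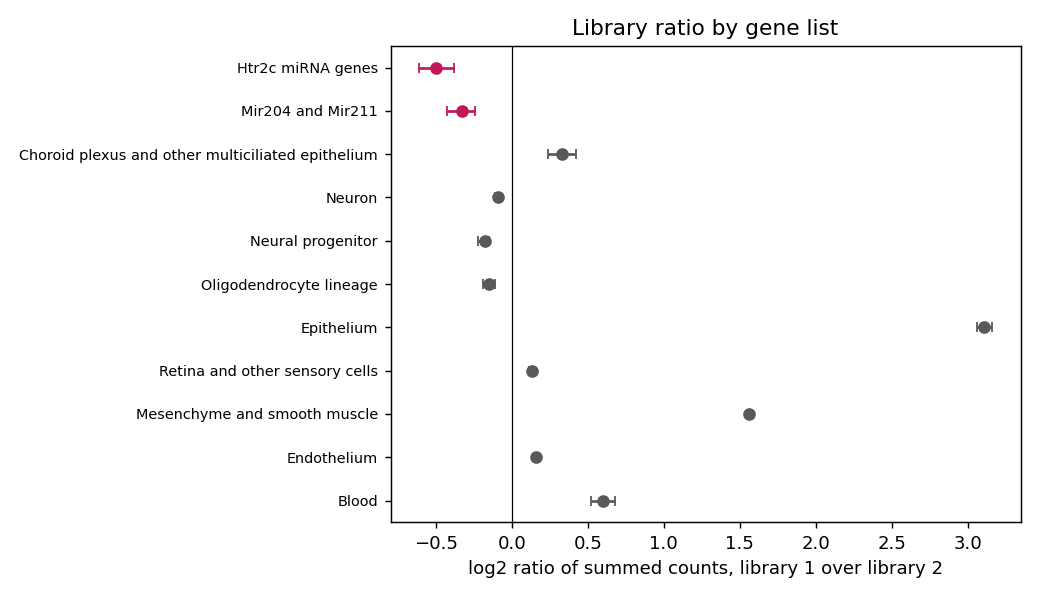
Log2 ratio of summed counts, library 1 over library 2, with 95% exact counting intervals, for the Htr2c miRNA genes, for Mir204 with Mir211 and for 9 marker lists. The members lie at -0.50 and -0.33, the neuron, neural progenitor and oligodendrocyte lists between -0.18 and -0.09, and the epithelium list at 3.11.

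Reads from the opposite strand added nothing to these loci. All 5 genes, and Mir764 and Mir1912, had 0 antisense counts in library 1 and 0 in library 2. Library 1 held 4228685 and library 2 held 6039889 sense counts in miRNA genes, and 29.4% and 29.7% of all reads of libraries 1 and 2 aligned to several places and were counted in no gene.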

How the data were processed

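Counts per miRNA gene were deposited by the authors as 1 table per library, raw and without normalization, on mm10 with annotation GENCODE M4 per the file headers of the accompanying README texts. The aligner and the counting tool are not named in those sources. Rows that name no gene, 45.7% of 7925935 reads in library 1 and 47.7% of 11738914 reads in library 2, were left out. The sense column was used, and the unstranded column equalled the sum of both strands with 0 exceptions. Symbols and hosts came from GENCODE M21, in which 1894 of 1973 identifiers matched without the version, and sequences from RefSeq on GRCm38.p6. CPM used the sense sum as library size. A gene was detected with at least 10 counts in each library. Poisson, Clopper-Pearson and Wilson intervals are at 95% (scipy 1.17.1, pandas 2.3.3, numpy 2.4.6, Python 3.11.15). TMM (edgeR 4.0.16) and DESeq2 1.42.0 size factors (R 4.3.3) were alternatives, and plots used matplotlib 3.10.9. The ratio calculation was checked on simulated Poisson counts. These held no spread between pools and no PCR copies, so the check covers the arithmetic and not the width of the intervals. The labels call the libraries biological replicates, each a separate pool.

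The genes, marker lists and the log2 boundary of 0.32 were chosen with earlier results of these data known. The genes named are the 5 members, the other miRNA genes in Htr2c, the 2 genes next above and below each detected member in mean CPM, and the 3 genes of at least 100 CPM nearest in ratio to Mir204 and to Mir1298. Hosts were taken as genes on the same strand that contain the miRNA gene. Markers and hosts named beside them were chosen after their values were seen.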

Additional observations from a re-analysis of the deposited data

How the results depend on the processing

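Of 44 recomputed values, 34 stayed within the spread, interval or 1.5-fold range of the reported value and 10 moved. None changed direction. Some of the 34 could not have moved. With n = 2, the value of either library alone always lies within the SD of their mean. The members had 0 antisense counts, so the unstranded column cannot change their detection or the ratios between them. The members' summed level of 661 CPM ranged from 571 to 752 CPM when either library was left out. It was 346 CPM with all reads as the library size and 1244 CPM without the 3 most abundant genes in it, by construction, as both change the denominator. That last scaling, added after the data were seen, gave a summed log2 ratio of library 1 to library 2 of -0.48 in place of -0.40, and leaving out Mir204 gave -0.49. Genes with a log2 ratio above 0.32, 83 of 363, numbered 176 of 573 with a minimum of 1 count and 45 of 363 at 1.5-fold. Genes below -0.32, 31 of 363, numbered 47 with TMM, 50 without the 3 most abundant genes and 3 at 1.5-fold. With a minimum of 1 count, which takes in more genes, they numbered 117 of 573. The cause of the TMM shift was not tested. The log2 ratio of Mir204 to Mir211 lay between 7.47 and 7.53, that of Mir1298 to both other Htr2c genes between 0.85 and 0.93, and that of the Htr2c genes to Mir204 and Mir211 between -0.69 and -0.52 when either library was left out. Depth limits Mir211, Mir764 and Mir1912, for which no difference between libraries was detectable. No paired analysis was possible because there is 1 group.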
